A study of Mus musculus with 12 samples.

Results

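The genes described here are MYC itself with its relative MYCN and their partner MAX, and 30 genes whose products build ribosomes or feed that process with pyrimidines and polyamines. They were chosen by name, as the rows of the deposited gene tables that carry these 33 symbols. All 33 were found among the 24411 listed genes, and all 33 were among the 13755 that passed the filter on low counts. They were followed through 12 RNA-seq libraries of mouse bone marrow, 3 in each of 4 donor genotypes.

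Every donor carried Mx1-Cre, a Cre recombinase under an interferon-responsive promoter that is switched on by pIpC, a synthetic double-stranded RNA. The control donors carried Mx1-Cre alone. The inv(3) donors added an inv(3) allele, named after the human chromosome 3 inversion that places EVI1 (MECOM) under a distant GATA2 enhancer. The Sf3b1 K700E donors added 1 mutant copy of Sf3b1, a core splicing factor, and the double donors carried both alleles. Marrow of each CD45.2+ donor was mixed with wild-type CD45.1+ support marrow and given to lethally irradiated CD45.1+ recipients. The recipients received 3 doses of pIpC at 20 mg/kg from 4 weeks after transplantation, and lineage-negative cKit+ cells of the long leg bones were collected 6 months later from mice on the C57BL/6 strain. Mx1-Cre acts in many blood and other cells after pIpC. The sources used here give neither the age of the mice, nor whether donor cells were separated from support and recipient cells, nor whether each library is 1 mouse. The p-values therefore set group differences only against the spread between libraries of a group, which may be technical.

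MYC is a transcription factor that binds DNA as a pair with MAX, preferentially at the E-box CACGTG, and it is known for raising the transcription of genes for cell growth. Much of that growth program is the making of ribosomes. RNA polymerase I copies the ribosomal DNA in the nucleolus, small nucleolar ribonucleoproteins guide the chemical marking and cleavage of the transcript, and assembly factors fold it with ribosomal proteins into the small and the large subunit. In bone marrow, MYC activity and ribosome production are high in dividing progenitors and decline as cells mature.

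The E-boxes are shown because they are the letters that MYC and MAX recognise. RefSeq promoters of 250 bases before to 50 bases after the start (GRCm38.p6) were matched by symbol for 26 of the 33 genes. CACGTG, which reads the same on both strands, occurred in the promoters of 6 of those 26 genes (23.077%). It occurred in a promoter of 1198 of 10404 tested genes with an entry (11.515%) and of 2187 of 27025 genes in the whole table (8.093%). The 30 bases around each motif are given 5′ to 3′ on the strand of the gene, with the motif in capitals.
Max: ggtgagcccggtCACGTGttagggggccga
Nop2: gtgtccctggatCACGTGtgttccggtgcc
Pes1: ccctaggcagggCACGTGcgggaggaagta
Wdr43: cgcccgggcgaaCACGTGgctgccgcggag
Nle1: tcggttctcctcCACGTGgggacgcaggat
Mybbp1a: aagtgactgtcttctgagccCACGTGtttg
These windows lie at chr12:76962234-76962263 (minus strand) for Max, chr6:125131811-125131840 (plus) for Nop2, chr11:3963965-3963994 (plus) for Pes1, chr17:71616220-71616249 (plus) for Wdr43, chr11:82908355-82908384 (minus) for Nle1 and chr11:72441347-72441376 (plus) for Mybbp1a. The motif began 3 bases before the transcription start in Max and 60 bases before it in Nop2. It began at the third transcribed base in Pes1 and at transcribed bases 18 in Wdr43, 24 in Nle1 and 41 in Mybbp1a. A match is a string of letters and not a measured binding site. Promoters of Myc, Npm1, Fbl, Rrp12, Bop1, Rrs1 and Srm had no entry in the table.

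Library totals ran from 73074797 to 86555638 expected counts. The cells carried Kit, the transcript of the gate's cKit, in every group, between 420 and 468 CPM (counts scaled to a common library size by TMM). Cd34 was at 280 to 316 CPM in control libraries. It was at 88.0 to 153 with inv(3), at 364 to 393 with Sf3b1 K700E and at 181 to 271 with both. Flt3 ran from 41.4 to 56.6 CPM in control and 5.06 to 7.81 in inv(3) libraries. Levels of Flt3 were 57.8 to 61.7 with Sf3b1 K700E and 9.43 to 12.5 with both. Mpo ran from 22107 to 24061 CPM in control and 27694 to 28112 in inv(3) libraries. Levels of Mpo were 14098 to 17458 with Sf3b1 K700E and 20917 to 23838 with both. Over all 12 libraries Myb lay within 973 to 1225 CPM and Ptprc within 228 to 325. Among genes of excluded lineages, Itgam ran from 164 to 202 CPM in control and 331 to 381 in inv(3) libraries. The inv(3) libraries lacked Y-linked RNA and held Xist at 1794 to 2095 CPM, against 24.0 to 39.9 in control, 77.1 to 210 in Sf3b1 K700E and 23.2 to 40.5 in double libraries. In inv(3) against control and in double against inv(3), this difference and the allele cannot be told apart. Double and Sf3b1 K700E libraries both held Y-linked RNA, but Xist was lower in double, with a log2 difference of -2.39 ± 0.35 (edgeR adjusted p = 0.00026). Of 4 Y-linked genes, Kdm5d and Uty were higher there by 0.24 ± 0.07 and 0.25 ± 0.07 (edgeR adjusted p of 0.015 and 0.012). The part of these differences in the results was not tested.

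Per base of transcript, the levels of these genes spanned a wide range. Npm1 was the most abundant, at a mean level of 1798 TPM (the deposited level per transcript length and library size) over the 4 groups, followed by Fbl at 367, Ncl at 309 and Nop56 at 274. Myc ranked 8 of 33 at 193 TPM. Mycn was the lowest at 4.36 TPM, and Rrp12 at 25.4 and Nle1 at 27.3 came next. All further levels are CPM and are compared only within a gene.

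Myc lies on chromosome 15 at 61985391 to 61990374 (GRCm38, plus strand) and was highest in the double libraries. It measured 193, 227 and 224 CPM in the control libraries, 225, 270 and 223 in inv(3), 288, 239 and 229 in Sf3b1 K700E and 340, 283 and 293 in double. Every double library lay above every control and every inv(3) library, while the other 3 groups lay within 193 to 288 CPM. The double libraries exceeded control by 42.6%, a log2 difference of 0.51 ± 0.11 (SE, n = 3 per group; edgeR quasi-likelihood test, adjusted p = 0.0031), and this call held under each of the 24 alternative settings. They exceeded inv(3) by 0.35 ± 0.11 (edgeR adjusted p = 0.039), and this call ended under 9 settings, with adjusted p up to 0.15. Leaving out control 2 or 3, inv(3) 1 or 3, Sf3b1 K700E 2, or double 1 or 3 were 7 of these. Neither allele alone gave a call against control, with 0.16 ± 0.11 for inv(3) (edgeR adjusted p = 0.27) and 0.23 ± 0.11 for Sf3b1 K700E (adjusted p = 0.20). Double exceeded Sf3b1 K700E by 0.28 ± 0.11 (edgeR adjusted p = 0.054), a difference that DESeq2 and limma-voom both called. The departure from additivity was 0.12 ± 0.15 (edgeR adjusted p = 0.77).

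Mycn, on chromosome 12 at 12936093 to 12941914 (minus strand), codes for a relative of MYC with the same partner and the same binding motif. It was scarce, with 3.55, 5.09 and 4.53 CPM in control, 4.27, 1.75 and 3.23 in inv(3), 8.11, 10.6 and 5.50 in Sf3b1 K700E and 11.5, 5.90 and 9.36 in double libraries. All 6 libraries with Sf3b1 K700E lay above all 6 without it. The test called Mycn higher in double than in inv(3), by 1.53 ± 0.35 on the log2 scale (edgeR adjusted p = 0.010), and than in control, by 1.02 ± 0.34 (adjusted p = 0.031). The second call ended in 6 settings, with adjusted p up to 0.12, 5 of them leaving out a control library or double 1 or 3. Sf3b1 K700E against control gave 0.88 ± 0.34 (edgeR adjusted p = 0.13), which DESeq2 called higher.

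Max, on chromosome 12 at 76937269 to 76962201 (minus strand), is the partner that MYC, MYCN and their antagonists share. It stayed within 108 to 118 CPM in all 12 libraries. Control libraries measured 108, 110 and 109 CPM, inv(3) 118, 115 and 115, Sf3b1 K700E 114, 108 and 110, and double 116, 116 and 118. The double group was higher than control by 7.19%, or 0.10 ± 0.04 (edgeR adjusted p = 0.040), but this call ended in 15 of 24 settings, with adjusted p up to 0.14. Leaving out any 1 of the 9 control, inv(3) and double libraries ended it.

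**Figure D1:**
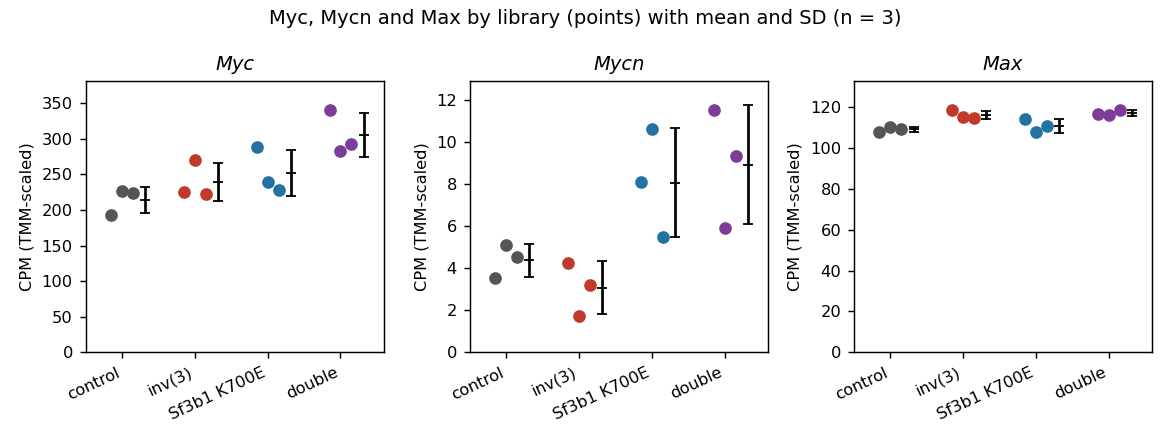
Myc, Mycn and Max in each of the 12 libraries (points, TMM-scaled CPM from 0 on the vertical axis) with the mean and SD of 3 libraries per group. The double libraries of Myc sit between 283 and 340 CPM, above all control and inv(3) libraries, and Max stays between 108 and 118 CPM throughout.

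Most of the 30 ribosome biogenesis and enzyme genes were lower with inv(3). In inv(3) against control, 20 of the 33 genes fell and none rose (edgeR, adjusted over all 13755 tested genes), and all 20 are among those 30. The background was 20.3% of tested genes lower and 18.4% higher. Among the 6921 genes with a mean of at least 25 CPM it was 14.5% lower and 21.6% higher. The median change of the 33 genes was -0.19 on the log2 scale, a fall of 12.5%, beside 0.0034 for all tested genes. Each fall was small: those called ran from -0.36 for Odc1 and Dkc1 to -0.16 for Nop2. At unadjusted p under 0.05, only Max was higher, and DESeq2 called it.

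When inv(3) was added to Sf3b1 K700E, 19 of the 33 genes fell and none rose by edgeR. The background here was 23.5% of tested genes lower and 25.7% higher, or 19.5% and 30.0% among those of at least 25 CPM. The median of the 33 genes was -0.16, beside 0.025 for all tested genes. Myc and Max were higher at unadjusted p under 0.05, and DESeq2 and limma-voom each called 1 gene higher, Myc. This comparison shares no library with inv(3) against control. Of the 33 genes, 15 fell in both, beside 15.5% of all tested genes and 11.1% of those of at least 25 CPM. The 15 are 75% of those that fell in inv(3) against control and 78.9% of those in double against Sf3b1 K700E. Most tested genes that fell in 1 comparison also fell in the other: 2793 fell in the first, 3227 in the second and 2136 in both. At 25 CPM or more these counts were 1007, 1352 and 765. Polr1a, Wdr43, Rrp12, Wdr12 and Nop2 fell only in the first, Npm3, Nop14, Nop16 and Srm only in the second, and none of these 9 passed the test of additivity described further on.

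Libraries of the compared groups were fully separated for most of these genes. Every inv(3) library lay below every control library for 23 genes (background 26.9% of tested genes, or 21.0% of those of at least 25 CPM), and every double library lay below every Sf3b1 K700E library for 22 (background 28.0%, or 23.1%). Both held for 20 of the 30 genes other than Myc, Mycn and Max (background 19.8% of tested genes, or 15.1% of those of at least 25 CPM). The summed level of the 30 genes was 7334 ± 100 CPM in control (SD, n = 3), 6280 ± 190 in inv(3), 7845 ± 70.4 in Sf3b1 K700E and 6581 ± 178 in double libraries.

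**Figure D2:**
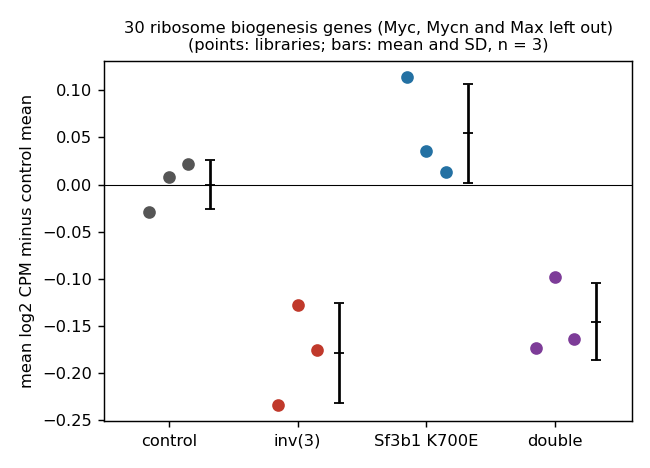
Mean log2 CPM of the 30 genes without Myc, Mycn and Max, relative to the control mean, for each library (points) with the mean and SD of 3 libraries per group. The inv(3) libraries lie between -0.233 and -0.127 and the double libraries between -0.174 and -0.0984, all below the control and Sf3b1 K700E libraries.

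The cells differed in other ways between the same groups. Markers of late neutrophils rose in inv(3) against control for 8 of 9 genes, with summed levels of 1428 to 2109 CPM in control and 4698 to 5783 CPM in inv(3) libraries. The sums were 1204 to 2247 CPM with Sf3b1 K700E alone and 2795 to 4006 with both alleles. Mast cell and basophil markers fell for 7 of 7, from 537 to 581 CPM to 159 to 207, and summed to 575 to 645 with Sf3b1 K700E and 151 to 189 with both alleles. Erythroid markers fell for 6 of 10 and rose for 1, from 810 to 881 CPM to 334 to 463, beside 951 to 1043 with Sf3b1 K700E and 391 to 445 with both. Tissue macrophage markers fell for 7 of 10 and rose for 1, from 346 to 433 CPM to 83.6 to 128, beside 458 to 628 with Sf3b1 K700E and 68.0 to 88.7 with both. Vcam1 alone measured 268 to 384 CPM in control and 44.2 to 74.7 in inv(3) libraries. B-lymphoid markers fell for 3 of 7 tested and rose for 1, with 8 genes summing to 22.6 to 23.5 CPM in control and 26.3 to 33.5 in inv(3) libraries. Nearly all of this sum was Cd79b, at 21.1 to 21.9 CPM in control and 25.7 to 32.5 in inv(3) libraries. In double against Sf3b1 K700E, late neutrophil markers rose for 6 of 9 and mast cell and basophil markers fell for 5 of 7. Tissue macrophage markers fell there for 10 of 10, erythroid markers fell for 9 of 10 and rose for 1, and B-lymphoid markers fell for 6 of 7 and rose for 1. No marker of these 5 lists was at 0 in a whole group. Cell cycle genes fell for 3 of 13 in inv(3) against control and for 9 of 13 in double against Sf3b1 K700E, with summed levels of 5533 to 5650, 5253 to 5498, 5481 to 5640 and 4872 to 5180 CPM in the 4 groups. The part of these differences in the fall of the ribosome biogenesis genes was not tested. In RNA from mixed cells, fewer cells of a type and less RNA per cell cannot be told apart.

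**Figure D3:**
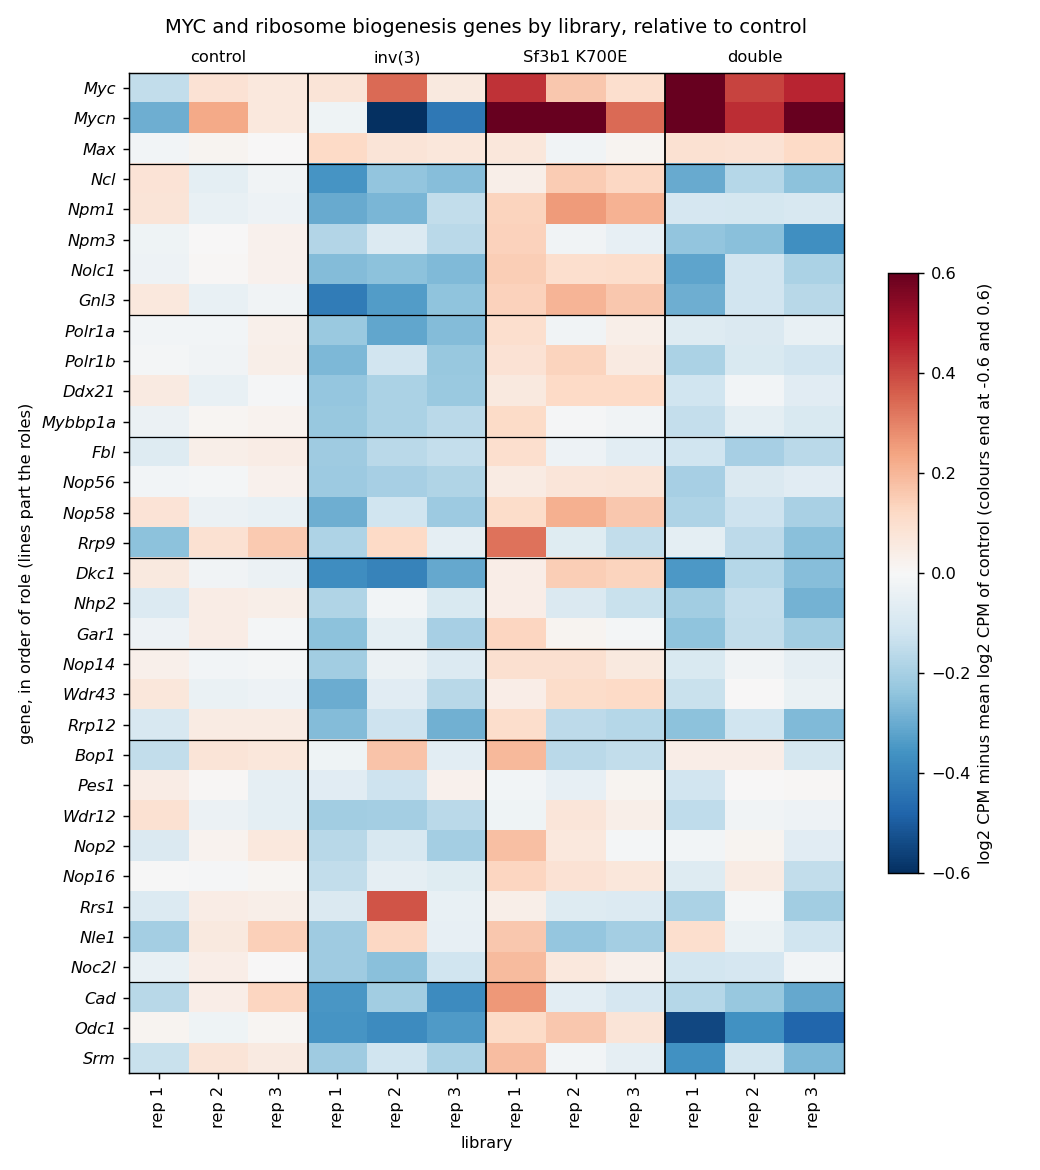
Each of the 33 genes (rows, by role) in each of the 12 libraries (columns), as log2 CPM minus the mean of the control libraries. Blue fills most of the inv(3) and double columns below the first 3 rows, and colours end at -0.6 and 0.6.

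Nearly all the nucleolar scaffold proteins and chaperones were lower with inv(3). Nucleolin (Ncl) and nucleophosmin (Npm1) organise the nucleolus and handle ribosomal RNA, Nolc1 chaperones small nucleolar ribonucleoproteins, Gnl3 (nucleostemin) is a nucleolar GTPase of progenitor cells, and Npm3 belongs to the nucleophosmin family. In inv(3) against control 4 of the 5 fell, and in double against Sf3b1 K700E all 5 did. Gnl3 measured 144, 134 and 136 CPM in control, 103, 110 and 117 in inv(3), 152, 159 and 155 in Sf3b1 K700E and 113, 128 and 123 in double libraries. Both groups with inv(3) lay wholly below both groups without it. It fell by 0.33 ± 0.06 with inv(3) alone (edgeR adjusted p = 0.00083) and by 0.36 ± 0.06 on Sf3b1 K700E (adjusted p = 0.00031). An exon of the neighbouring gene Pbrm1 overlaps Gnl3 on the other strand, and reads there cannot be assigned in unstranded libraries.

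Npm3 was the least changed of the scaffold group in inv(3) against control, with 100, 103 and 104 CPM in control and 90.5, 96.7 and 91.6 in inv(3) libraries. The groups did not overlap, and the difference of -0.14 ± 0.05 missed the threshold (edgeR adjusted p = 0.062). Levels were 113, 101 and 98.9 CPM in Sf3b1 K700E and 86.9, 86.1 and 79.3 in double libraries, the lowest of all groups, and Npm3 fell by 0.31 ± 0.05 between these (edgeR adjusted p = 0.00066). Its counts were not whole numbers in 10 of 12 libraries, which marks reads shared with another gene. Ncl fell by 0.28 ± 0.05 with inv(3) alone (edgeR adjusted p = 0.0013) and by 0.34 ± 0.05 on Sf3b1 K700E (adjusted p = 0.00025). Nolc1 fell by 0.26 and 0.32 in the same comparisons, and Npm1 by 0.24 and 0.30.

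RNA polymerase I and its co-factors fell in inv(3) against control in all 4 genes: Polr1a and Polr1b, the largest subunits, the RNA helicase Ddx21, and Mybbp1a, a nucleolar protein tied to ribosomal RNA synthesis. In double against Sf3b1 K700E, 3 of them fell. Polr1a measured 138, 138 and 142 CPM in control and 120, 112 and 116 in inv(3) libraries, a fall by 0.26 ± 0.04 (edgeR adjusted p = 0.00049). It measured 150, 137 and 143 in Sf3b1 K700E and 132, 131 and 135 in double libraries. These groups did not overlap either, but the difference of -0.11 ± 0.04 missed the threshold (edgeR adjusted p = 0.053). Polr1a was higher in double than in inv(3) by 0.20 ± 0.04 (edgeR adjusted p = 0.0082), a call that held under all settings that test it.

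Polr1b measured 90.1, 89.6 and 93.2 CPM in control, 75.4, 84.0 and 77.8 in inv(3), 96.5, 99.9 and 94.5 in Sf3b1 K700E and 79.8, 85.3 and 84.0 in double libraries. Both inv(3) groups lay below both others, with falls of 13.1% (edgeR adjusted p = 0.0046) and 14.4% (adjusted p = 0.0018). Its counts were not whole in 5 libraries. Ddx21 fell by 0.22 and 0.17, and Mybbp1a by 0.19 and 0.13, in inv(3) against control and in double against Sf3b1 K700E.

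Box C/D ribonucleoproteins place methyl groups on ribosomal RNA through the methyltransferase Fbl and the scaffold proteins Nop56 and Nop58, and Rrp9 belongs to the U3 particle that starts the cleavage of the precursor. The first 3 fell in both comparisons of inv(3), and Rrp9 in neither. Nop56 measured 285, 285 and 293 CPM in control and 247, 251 and 254 in inv(3) libraries, a fall by 0.20 ± 0.04 (edgeR adjusted p = 0.0020). It measured 298, 303 and 304 in Sf3b1 K700E and 251, 271 and 275 in double libraries, a fall by 0.18 ± 0.04 (edgeR adjusted p = 0.0024). Neither pair of groups overlapped. Small nucleolar RNA genes and an exon of Idh3b overlap its exons.

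Rrp9 ranged from 24.4 to 36.3 CPM with all groups overlapping. Control libraries measured 24.4, 30.9 and 32.3, inv(3) 25.5, 31.5 and 28.0, Sf3b1 K700E 36.3, 27.6 and 26.2, and double 27.9, 26.0 and 24.4. Its change of -0.04 ± 0.14 in inv(3) against control (edgeR adjusted p = 0.82) had the largest standard error of the 4 genes. Nop58 fell by 0.21 and 0.33, and Fbl by 0.17 and 0.16, in inv(3) against control and in double against Sf3b1 K700E.

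Box H/ACA ribonucleoproteins convert uridines of ribosomal RNA to pseudouridine, and also hold telomerase RNA, through the synthase Dkc1 (dyskerin) with Nhp2 and Gar1. Dkc1, at chromosome X 75095854 to 75109777, measured 220, 208 and 206 CPM in control, 163, 160 and 170 in inv(3), 217, 234 and 232 in Sf3b1 K700E and 166, 187 and 177 in double libraries. It fell by 0.36 ± 0.05 in inv(3) against control (edgeR adjusted p = 0.00023) and by 0.36 ± 0.05 in double against Sf3b1 K700E (adjusted p = 0.00014). Xist differed in both comparisons, and its part in the change of Dkc1 was not tested. The departure from additivity was -0.0032 ± 0.07 (edgeR adjusted p = 0.99). Nhp2 measured 79.4, 86.4 and 86.1 CPM in control, 74.1, 82.9 and 78.7 in inv(3), 86.3, 78.9 and 76.5 in Sf3b1 K700E and 72.5, 75.9 and 69.0 in double libraries. Control and inv(3) overlapped, with -0.10 ± 0.06 (edgeR adjusted p = 0.23), and double fell below control by 0.21 ± 0.06 (adjusted p = 0.014). Gar1 fell by 0.17 and 0.25 in the comparisons of inv(3) alone and on Sf3b1 K700E.

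Of the small-subunit assembly factors, Wdr43 and Rrp12 fell in inv(3) against control and Nop14 in double against Sf3b1 K700E. Wdr43, a scaffold of early small-subunit precursors, measured 186, 173 and 174 CPM in control and 144, 169 and 158 in inv(3) libraries. The fall by 0.18 ± 0.06 (edgeR adjusted p = 0.035) came with 1 inv(3) library, replicate 2, close to the control range. Its levels were 183, 192 and 193 CPM in Sf3b1 K700E and 162, 178 and 173 in double libraries, with -0.15 ± 0.06 (edgeR adjusted p = 0.061). Nop14 measured 68.4, 66.4 and 66.4 CPM in control, 58.1, 65.4 and 63.3 in inv(3), 71.8, 71.8 and 70.0 in Sf3b1 K700E and 63.0, 66.1 and 64.7 in double libraries. It gave -0.11 ± 0.04 in inv(3) against control (edgeR adjusted p = 0.076) and fell by 0.14 ± 0.04 in double against Sf3b1 K700E (adjusted p = 0.022). Rrp12, which aids export of precursors, fell by 0.22 ± 0.08 in inv(3) against control (edgeR adjusted p = 0.040).

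The large-subunit assembly factors had a median of -0.07 in inv(3) against control, beside medians of -0.32 to -0.17 in the other 6 groups of ribosome biogenesis and enzyme genes. In the wider lists described further on, the median was -0.095 for 38 other large-subunit factors and -0.11 for 39 other small-subunit factors. Of the 8 large-subunit factors here, 3 fell in inv(3) against control (Wdr12, Nop2 and Noc2l) and 2 in double against Sf3b1 K700E (Nop16 and Noc2l). Wdr12, Bop1 and Pes1 form 1 complex needed for the large-subunit ribosomal RNA. Wdr12 measured 113, 104 and 102 CPM in control, 91.9, 92.4 and 95.1 in inv(3), 105, 112 and 109 in Sf3b1 K700E and 95.8, 105 and 104 in double libraries. It fell below control in inv(3) by 0.19 ± 0.05 (edgeR adjusted p = 0.010), while double and Sf3b1 K700E overlapped. Its partner Bop1 measured 91.8, 107 and 107 CPM in control, 99.7, 114 and 97.1 in inv(3), 116, 90.9 and 91.7 in Sf3b1 K700E and 104, 104 and 94.5 in double libraries. All groups of Bop1 overlapped, with 0.03 ± 0.10 in inv(3) against control (edgeR adjusted p = 0.86). Pes1 gave -0.06 ± 0.05 in the same comparison (adjusted p = 0.41). The difference between these partners was not tested.

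Of the other large-subunit factors, Nop2 methylates a cytosine of ribosomal RNA. It fell by 0.16 ± 0.06 in inv(3) against control (edgeR adjusted p = 0.047), a call that ended in 14 settings, with adjusted p up to 0.20. Leaving out control 2 or 3, inv(3) 1 or 3, Sf3b1 K700E 2 or 3, or any double library ended it. Noc2l fell by 0.19 and 0.17 in the comparisons of inv(3) alone and on Sf3b1 K700E, and 598 of its 2867 exonic bases overlap Samd11 on the other strand. Nop16 fell by 0.15 in double against Sf3b1 K700E. Rrs1 and Nle1, which are needed to assemble the large subunit, gave 0.10 ± 0.11 and -0.05 ± 0.13 in inv(3) against control, with adjusted p of 0.50 and 0.79 by edgeR. Rrs1 was high in 1 inv(3) library, replicate 2, at 99.1 CPM against 65.9 to 78.6 in the other 11.

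The enzymes Odc1, Srm and Cad are often listed MYC targets. Odc1 (ornithine decarboxylase) makes putrescine, the first polyamine, Srm turns it into spermidine, and Cad starts pyrimidine synthesis. Odc1 lies on chromosome 12 at 17544794 to 17551505 and had the smallest p-value of the 33 genes in both comparisons of inv(3). It measured 210, 203 and 209 CPM in control, 162, 159 and 164 in inv(3), 225, 232 and 219 in Sf3b1 K700E and 142, 161 and 149 in double libraries. Every library with inv(3) lay below every library without it. The fall was 21.9% with inv(3) alone, or 0.36 ± 0.05 on the log2 scale (edgeR adjusted p = 0.00013). On Sf3b1 K700E it was 33.1%, or 0.58 ± 0.05 (edgeR adjusted p = 2.5e-06).

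Srm measured 136, 158 and 156 CPM in control, 129, 138 and 131 in inv(3), 170, 148 and 144 in Sf3b1 K700E and 116, 139 and 124 in double libraries. Control and inv(3) overlapped through control 1, with -0.18 ± 0.08 (edgeR adjusted p = 0.10). The fall between Sf3b1 K700E and double was 0.29 ± 0.08 (edgeR adjusted p = 0.012). Cad fell by 0.32 ± 0.10 in inv(3) against control (edgeR adjusted p = 0.025) and by 0.27 ± 0.10 in double against Sf3b1 K700E (adjusted p = 0.037). In 5 genes singled out after their values were seen, Rrp9, Bop1, Nle1, Cad and Srm, control 1 was the lowest control library and Sf3b1 K700E 1 the highest of its group.

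Of the 20 falls in inv(3) against control, 14 held under every setting that gave a value, and those of Fbl, Gar1, Wdr43, Rrp12, Nop2 and Cad ended under at least 1. Of the 19 in double against Sf3b1 K700E, 12 held throughout, and those of Mybbp1a, Fbl, Nop14, Nop16, Noc2l, Cad and Srm did not. Upper-quartile scaling moved the share of higher calls among all called genes from 52.3% to 40.3% in double against Sf3b1 K700E, and from 44.6% to 62.4% in Sf3b1 K700E against control.

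**Figure D4:**
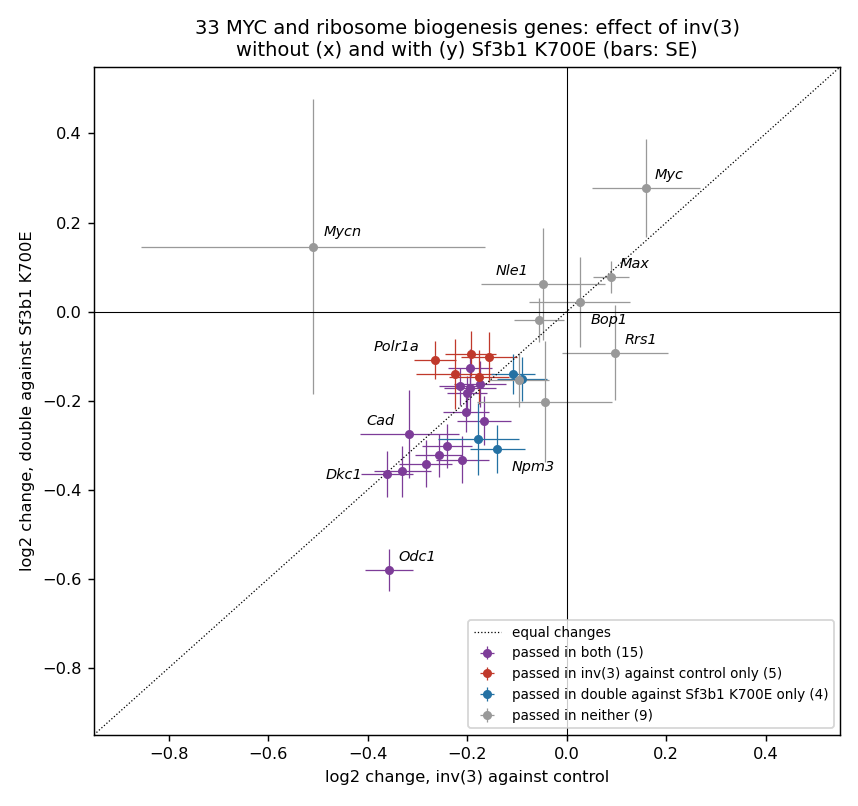
Log2 change of each of the 33 genes with inv(3) alone (inv(3) against control, horizontal) and with inv(3) on Sf3b1 K700E (double against Sf3b1 K700E, vertical), bars showing the standard error and the dotted line equal changes. The 15 genes that passed in both lie at the lower left, with Odc1 the farthest below the line at -0.36 and -0.58.

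In Sf3b1 K700E against control 27 of the 33 genes had a positive sign, beside a median change of -0.0053 over all tested genes. At unadjusted p under 0.05, 7 were higher by edgeR and 11 by DESeq2, counts without a background share. A single gene was called by edgeR, and 4 by DESeq2 (Mycn, Npm1, Gnl3 and Nop58), with an edgeR background of 3.94% of tested genes higher and 4.90% lower, or 2.36% and 7.85% of those of at least 25 CPM. Npm1 measured 1379, 1267 and 1283 CPM in control and 1435, 1561 and 1514 in Sf3b1 K700E libraries, a rise by 0.20 ± 0.05 (edgeR adjusted p = 0.033). The groups did not overlap. The call ended under 6 settings, with adjusted p up to 0.14, 5 of them leaving out control 2 or 3, Sf3b1 K700E 2 or 3, or double 3. Npm1 measured 1061, 1082 and 1183 CPM in inv(3) and 1220, 1215 and 1224 in double libraries. The next smallest p-values were those of Nop58, Gnl3, Mycn and Odc1, with changes of 0.16 ± 0.05, 0.17 ± 0.06, 0.88 ± 0.34 and 0.12 ± 0.05 and edgeR adjusted p of 0.079, 0.091, 0.13 and 0.14. Nop58 measured 248, 229 and 228 CPM in control, 191, 216 and 202 in inv(3), 253, 272 and 263 in Sf3b1 K700E and 206, 215 and 205 in double libraries, with no overlap between control and Sf3b1 K700E.

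No gene of the 33 was called lower by edgeR, DESeq2 or limma-voom in Sf3b1 K700E against control, and none was lower at unadjusted p under 0.05. The median was 0.07, beside -0.0053 for all tested genes. Tissue macrophage markers rose in the same comparison for 8 of 10 genes, from a summed 346 to 433 CPM to 458 to 628, and late neutrophil markers for 0 of 9 (4 of 9 at unadjusted p under 0.05). Erythroid markers rose for 3 of 10, from a summed 810 to 881 CPM to 951 to 1043, and mast cell and basophil markers for 1 of 7, from 537 to 581 to 575 to 645. B-lymphoid markers rose for 4 of 7 tested, from a summed 22.6 to 23.5 CPM over 8 genes to 24.5 to 25.7. No marker in these 5 lists fell. Their part in the change of Npm1 was not tested.

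With both alleles against neither, the 33 genes split. Myc, Mycn and Max were higher and 14 ribosome biogenesis and enzyme genes were lower (background 20.8% higher and 20.4% lower, or 20.1% and 18.4% at 25 CPM or more). All 30 genes other than Myc, Mycn and Max had a negative sign, with a median of -0.13, beside 0.0024 for all tested genes. The 14 were Ncl, Npm3, Nolc1, Gnl3, Polr1b, Fbl, Nop56, Nop58, Dkc1, Nhp2, Gar1, Rrp12, Odc1 and Srm. None of the 8 large-subunit factors was among them. In the wider lists described further on, 17 of 38 other large-subunit factors and 18 of 39 other small-subunit factors fell here, and none rose. Of the 14, Odc1 fell most, by 0.46 ± 0.05 (edgeR adjusted p = 1.5e-05), followed by Npm3 at -0.28 and Dkc1 at -0.26. The 17 calls dropped to 9 without control 2, control 3, double 1 or double 3, and 7 of them held under every setting: Myc, Ncl, Npm3, Nolc1, Dkc1, Gar1 and Odc1. This comparison shares the control libraries with those of the single alleles.

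When Sf3b1 K700E was added to inv(3), 4 genes rose and none fell (background 13.4% higher and 9.13% lower, or 9.77% and 12.9% at 25 CPM or more): Myc, Mycn, Polr1a and Ddx21. Ddx21 measured 307, 317 and 310 CPM in inv(3) and 332, 357 and 344 in double libraries, with no overlap and a rise by 0.15 ± 0.04 (edgeR adjusted p = 0.024). At unadjusted p under 0.05, 10 were higher and 1 lower, counts without a background share, and DESeq2 called Npm3 lower. The count was 2 without control 3, inv(3) 1 or double 3. Ddx21 was no longer called without any of these, and also without inv(3) 3 or double 2. Cell cycle genes fell for 7 of 13 in the same comparison.

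The test of additivity asked whether inv(3) had another effect on Sf3b1 K700E than alone. No gene of the 33 passed it by edgeR or limma-voom. The edgeR background was 0.436% of tested genes lower and 0.400% higher, or 0.361% and 0.535% at 25 CPM or more. By edgeR 2 had an unadjusted p under 0.05 (Odc1 and Polr1a). DESeq2 called Odc1, a call without a DESeq2 background share. Odc1 departed by -0.22 ± 0.07 (edgeR adjusted p = 0.14) and Polr1a by 0.16 ± 0.06 (adjusted p = 0.22). Npm3 gave -0.17 ± 0.08, Nop58 -0.12 ± 0.07 and Wdr12 0.10 ± 0.07, with edgeR adjusted p of 0.31, 0.46 and 0.55. Without double 2, 1 gene was called.

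Other genes of the MYC network were looked at in a list of 15. In inv(3) against control 4 rose and 1 fell, and in double against Sf3b1 K700E 7 rose and 2 fell. The share that rose was 26.7% in the first, beside 18.4% of all tested genes and 21.6% of those of at least 25 CPM. It was 46.7% in the second, beside 25.7% and 30.0%. Mxd1, Mxi1 and Mnt code for proteins that take MAX away from MYC and repress E-box genes. Mxd3, Mxd4 and Mga of the same list were not called in inv(3) against control. Their means were 5.05, 17.3 and 188 CPM in control and 6.28, 20.3 and 182 in inv(3) libraries. Mxi1 measured 104, 98.6 and 88.7 CPM in control, 143, 189 and 150 in inv(3), 69.3, 72.9 and 80.1 in Sf3b1 K700E and 107, 130 and 119 in double libraries. Every inv(3) library exceeded every control library, and every double library every Sf3b1 K700E library. All Sf3b1 K700E libraries lay below all control libraries, and in that comparison 1 gene of the list fell and none rose by edgeR. Mxi1 rose by 0.73 ± 0.11 with inv(3) alone (edgeR adjusted p = 0.00031) and by 0.68 ± 0.11 on Sf3b1 K700E (adjusted p = 0.00034). It was lower in double than in inv(3) by 0.44 ± 0.11 (edgeR adjusted p = 0.015).

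Mxd1 rose from 27.9, 26.7 and 26.6 CPM in control to 33.0, 39.4 and 33.9 in inv(3) libraries, by 0.39 ± 0.07 (edgeR adjusted p = 0.00069). In Sf3b1 K700E it measured 23.4, 24.4 and 25.7 CPM and in double libraries 28.1, 29.1 and 28.6, a rise by 0.22 ± 0.07 (edgeR adjusted p = 0.015). Mlxipl, which codes for the glucose-responsive factor ChREBP that pairs with the MAX-like protein MLX, was scarce. It measured 0.393, 0.554 and 0.456 CPM in control and 2.73, 1.80 and 1.90 in inv(3) libraries, and rose by 2.19 ± 0.22 (edgeR adjusted p = 2.1e-05). It measured 0.338, 0.529 and 0.445 CPM in Sf3b1 K700E and 2.44, 2.33 and 2.31 in double libraries. The other calls in inv(3) against control, named after their values were seen, were Mnt, which rose by 0.30 ± 0.10 (edgeR adjusted p = 0.037), and Mycl, a further MYC relative, which fell by 1.40 ± 0.44 (adjusted p = 0.026) from 3.25 ± 0.276 to 1.24 ± 0.672 CPM (SD, n = 3).

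Other ribosome biogenesis genes were listed by role, apart from the 33. The background for the counts that follow was 20.3% of tested genes lower in inv(3) against control and 23.5% in double against Sf3b1 K700E, or 14.5% and 19.5% of those of at least 25 CPM. Of 39 small-subunit factors, 15 fell and none rose in inv(3) against control, and 27 fell and none rose in double against Sf3b1 K700E. Upper-quartile scaling gave 23 lower and none higher in the first, where it also raised the lower calls among all tested genes from 2793 to 3415. RLE scaling, and leaving out the 100 most abundant genes before scaling, each gave 15 lower there. Rcl1, Nat10 and Cirh1a (UTP4) had the smallest p-values among those that fell in the first, with -0.36 ± 0.04, -0.28 ± 0.04 and -0.30 ± 0.04 (edgeR adjusted p of 5.2e-05, 0.00017 and 0.00029). Of 38 large-subunit factors, 15 fell and none rose in the first, and 19 fell and 1 rose (Gnl2, by 0.14 ± 0.05) in the second. Rrp1b, Ftsj3 and Sdad1 led with -0.38 ± 0.03, -0.36 ± 0.04 and -0.32 ± 0.05 in inv(3) against control (edgeR adjusted p of 1.1e-05, 5.7e-05 and 0.00029).

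RNA polymerase I subunits and initiation factors outside the 33 fell for 2 of 12 in inv(3) against control and for 5 of 12 in double against Sf3b1 K700E, which is 16.7% and 41.7%, beside the 20.3% and 23.5% of all tested genes. Upper-quartile scaling, which raised the lower calls among all genes as well, gave 5 of 12 lower in the first. RLE scaling and leaving out the 100 most abundant genes each gave 2. The pair in the first were Rrn3, the factor that brings the polymerase to its promoter, at -0.13 ± 0.04 (edgeR adjusted p = 0.019), and Taf1d at -0.18 ± 0.07 (adjusted p = 0.042). Of 8 further genes of small nucleolar ribonucleoproteins, 2 fell in the first, Nhp2l1 at -0.13 ± 0.04 and Shq1 at -0.19 ± 0.06, and 4 in the second, which is 25% and 50%. Upper-quartile scaling gave 5 of 8 lower in the first, and each of the other scalings 2. Of 27 genes of growth and nucleotide supply that are often listed as MYC targets, 15 fell and 1 rose in the first, and 20 fell and 1 rose in the second. Mthfd1 of folate metabolism, the amino acid transporter gene Slc7a5 and Gart of purine synthesis fell by 0.40 ± 0.05, 0.48 ± 0.06 and 0.29 ± 0.04 in inv(3) against control (edgeR adjusted p of 4.9e-05, 5.2e-05 and 6.2e-05). The gene that rose in both was Sms, spermine synthase, by 0.19 ± 0.05 each time (edgeR adjusted p of 0.012 and 0.010). No gene of these 6 lists passed the test of additivity by edgeR, where 10 of 139 had an unadjusted p under 0.05.

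**Figure D5:**
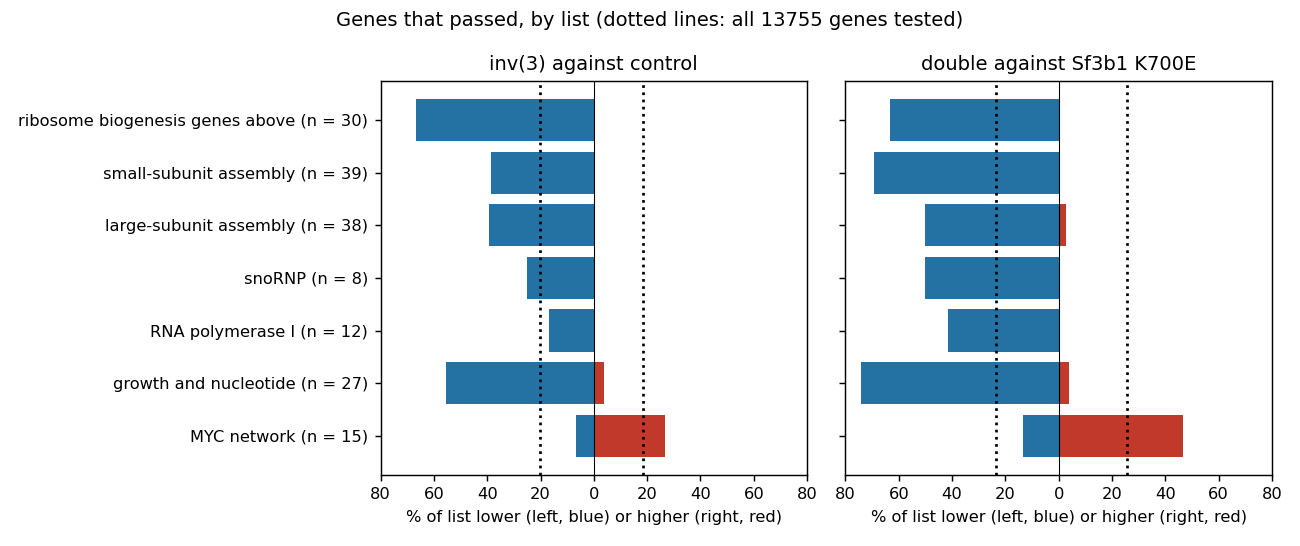
Share of each list called lower (blue, to the left) or higher (red, to the right) in inv(3) against control and in double against Sf3b1 K700E, with n the genes in the list and dotted lines the share of all 13755 tested genes. All lists but the MYC network have more genes lower than higher, and the top bar holds the 30 genes described above.

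The genes whose promoter holds CACGTG were found both among those that fell and among the rest. Of those 6, 3 fell in inv(3) against control (Mybbp1a, Wdr43 and Nop2), with a median of -0.11. Of the 20 matched genes without the motif 14 fell, with a median of -0.21. In double against Sf3b1 K700E 1 of the 6 and 15 of the 20 fell. Of all tested genes 20.3% fell in the first comparison and 23.5% in the second, and these shares were not split by the motif. The 6 include Max and the 20 include Mycn. Max, Pes1 and Nle1, whose windows are printed above, were not called in either comparison by edgeR. No binding was measured here, and 7 genes had no promoter entry.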

How the data were processed

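RNA of 12 libraries was poly(A)-selected and made into unstranded TruSeq libraries, per the labels. The deposited gene tables have RSEM's columns, per the file headers: expected counts (the authors' estimated fragments per gene, not normalized), TPM and effective length in bases. Bcl2fastq and the mm10 build are named in the submitters' processing notes. No source used here gives the aligner or a version.

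Groups came from the labels. The 33 genes and all lists were chosen with earlier results of these data known, so they are no independent evidence. Expected counts were rounded (3.63% were not whole), filtered with filterByExpr by group, scaled by TMM and fitted in 1 edgeR 4.0.16 quasi-likelihood model over the 4 groups (robust, R 4.3.3). P-values are two-sided and Benjamini-Hochberg adjusted over 13755 genes, with 0.05 as threshold. "Rose", "fell" and "called" mean passing it. Background shares were counted for these calls and for separated libraries, and not for signs or unadjusted p-values. The 6 contrasts are 5 pairs of groups and their departure from additivity, (double − Sf3b1 K700E) − (inv(3) − control). Standard errors come from the F statistic. TPM deposited by the authors served only to order genes by level. No 2 libraries of the same group agreed within sampling noise (chi-square per gene 8.31 to 52.7). Alternatives used limma 3.58.1, DESeq2 1.42.0 and other scalings, filters and library subsets. The fit was tested on simulated data.

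Values in every library are given for Myc, Mycn and Max, for the genes with the smallest and largest p in inv(3) against control in each role, and for up to 5 with the smallest p in Sf3b1 K700E against control and in the test of additivity. From each pathway list up to 3 called genes with the smallest p in inv(3) against control are named. Genes outside this rule are marked as such or given in brief. E-boxes were searched as CACGTG in RefSeq promoters. Exons of Mybbp1a, Rrp9, Dkc1, Nhp2, Bop1, Wdr12 and Nle1 share 20 to 131 bases with a gene on the other strand, and reads there cannot be assigned in unstranded libraries.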

Additional observations from a re-analysis of the deposited data

How the results depend on the processing

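None of the 61 calls among 198 gene and comparison results changed direction under 24 alternative settings, and 35 were called under all settings that gave a value. Another 22 results were called only under some alternative. Upper-quartile scaling moved the median log2 change of the 33 genes to -0.23 in inv(3) against control, 0.10 in Sf3b1 K700E against control and -0.22 in double against Sf3b1 K700E, with shifts of the median of all genes to -0.039, 0.031 and -0.035, and gave 4 calls in Sf3b1 K700E against control. A minimum mean of 5 CPM gave 3 calls there and a median of -0.20 in double against Sf3b1 K700E. DESeq2 gave 4 calls in Sf3b1 K700E against control and 1 in the test of additivity. Fitting only the compared groups gave 2 calls in double against inv(3) and cannot give the test of additivity. The cause of these differences was not tested. Leaving out 1 library at a time gave 14 to 21 calls in inv(3) against control, 0 to 2 in Sf3b1 K700E against control, 9 to 19 in double against control, 2 to 5 in double against inv(3), 14 to 23 in double against Sf3b1 K700E and 0 to 1 for additivity. The medians then ran from -0.20 to -0.17, 0.043 to 0.11, -0.14 to -0.10, 0.02 to 0.08, -0.21 to -0.14 and -0.053 to 0.0068 in the same order.

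Replicate numbers did not pair the libraries: of 18 same-numbered pairs, 2 had deviations correlated above 0.1 (range -0.337 to 0.230). With the replicate number as a block, 18 genes were called in inv(3) against control, 0 in Sf3b1 K700E against control, 13 in double against control, 3 in double against inv(3), 17 in double against Sf3b1 K700E and 0 for additivity. A fit to autosomal genes alone, chosen after seeing the data, has no value for Dkc1. Mycn had 127 to 968 expected counts per library, which limits its precision.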
